A study of Mus musculus with 2 samples.

Results

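The transcripts described here are those of 72 mitochondrial ribosomal protein genes, out of 10543 genes with a single symbol in the table. They were taken by symbol: 45 begin with Mrpl, the name given to proteins of the large subunit, and 27 with Mrps, the name given to the small subunit. The rule uses the symbol alone, but it was chosen with earlier results of these data known. Poly(A) RNA came from thigh muscle of mice of the hybrid strain B6C3F1, aged 26 months in both groups. The calorie restriction (CR) group was fed for 25 months with a cut of 40% in calories, its food being enriched so that protein, vitamins and minerals per body weight stayed near those of controls, and the control group had eaten the control diet. Each group is 1 library, so no difference below has a replicate check, and neither a test nor a p-value can be given. The sources used here do not give how many mice a library holds.

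Mitochondrial ribosomes translate the few proteins that the mitochondrial genome encodes, all of them subunits of the respiratory chain and ATP synthase. Their own proteins are encoded in the nucleus, made in the cytosol and imported, and they assemble on mitochondrial ribosomal RNA into a large subunit, which forms peptide bonds, and a small subunit, which reads the messenger RNA. Skeletal muscle depends on this machinery because its oxidative fibres are rich in mitochondria.

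Levels are FPKM, in which fragments are scaled by transcript length and by the fragments mapped in a library, so genes of different length can be set side by side. That unit is taken from the deposited column names; the values of all loci sum to 1.36e+07 in CR and 1.28e+07 in control, which is high for FPKM, so comparisons of level between genes rest on the unit being as named. The depth of the libraries is unknown. Log2 ratios set CR over control after adding 1 to each FPKM value, which understates differences of low genes. A gene counts as passing from a 1.5-fold or a 2-fold ratio, and smaller ratios are given as values alone. Muscle markers were abundant in both libraries, with Acta1, skeletal actin, at 354522 FPKM in CR and 372424 FPKM in control. As a set they were not equal: of 9 measured muscle-fibre markers 7 had log2 ratios above 0, beside 47.9% of all genes. Of the 9, 4 were at least 1.5-fold higher in CR, beside 16.4% of all genes, and 0 were lower. The 9, which include the slow-fibre marker Myh7, summed to 1.41 times as much in CR. Because this is whole tissue, fewer cells of a type and less RNA per cell cannot be told apart.

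All 72 genes were above 0 in both libraries, each at 1 locus, and passed the minimum mean of 1 FPKM. The annotation used for gene lengths lists 78 protein-coding Mrpl and Mrps symbols. Of the 6 that are not members, Mrps6 and Mrpl53 lie in loci merged with a neighbour. The locus of Mrps6 and Slc5a3 stood at 479 FPKM in CR and 255 FPKM in control, and that of Mrpl53 and Ccdc142 at 1219 FPKM in CR and 1617 FPKM in control. Mrpl57 and Mrpl58 appear under the older symbols Mrp63 and Ict1, and Mrpl23 and Mrps36 were not analysed here.

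Mitochondrial ribosomal transcripts leaned towards the CR library by a small ratio. Of the 72 genes 47 had a log2 ratio above 0 (65.3%), beside 47.9% of the 10533 genes that average 1 FPKM or more. Their median log2 ratio was 0.21, a fold of 1.16, beside -0.03 for all genes. At 1.5-fold, 15 members (20.8%) were higher in CR, against 16.4% of all genes, a share near the background. None of the 72 was at least 1.5-fold lower in CR, against 18.8% of all genes, although Mrps2 and Mrps12 lay just short of it, and after rescaling the libraries to equal sums 3 members were past it. At 2-fold, 2 members were higher (8.01% of all genes) and 0 were lower (10.7% of all genes). By SD the members varied less than genes at large. The SD of their log2 ratios was 0.44 across genes, against 1.58 across all genes. It was 0.86 across the 8274 genes whose mean FPKM lies within the members' range. The log2 ratios of those 8274 genes reached -8.73 and 9.19, extremes that raise an SD. By quartiles the spreads were closer. The lower and upper quartiles were -0.10 and 0.51 for members, and -0.35 and 0.33 for the 8274 genes. For all genes they were -0.42 and 0.37. Among those 8274 genes 48.3% were above 0, 13.6% were at least 1.5-fold higher and 14.5% at least 1.5-fold lower in CR, and 5.23% were at least 2-fold higher and 5.98% at least 2-fold lower.

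**Figure D1:**
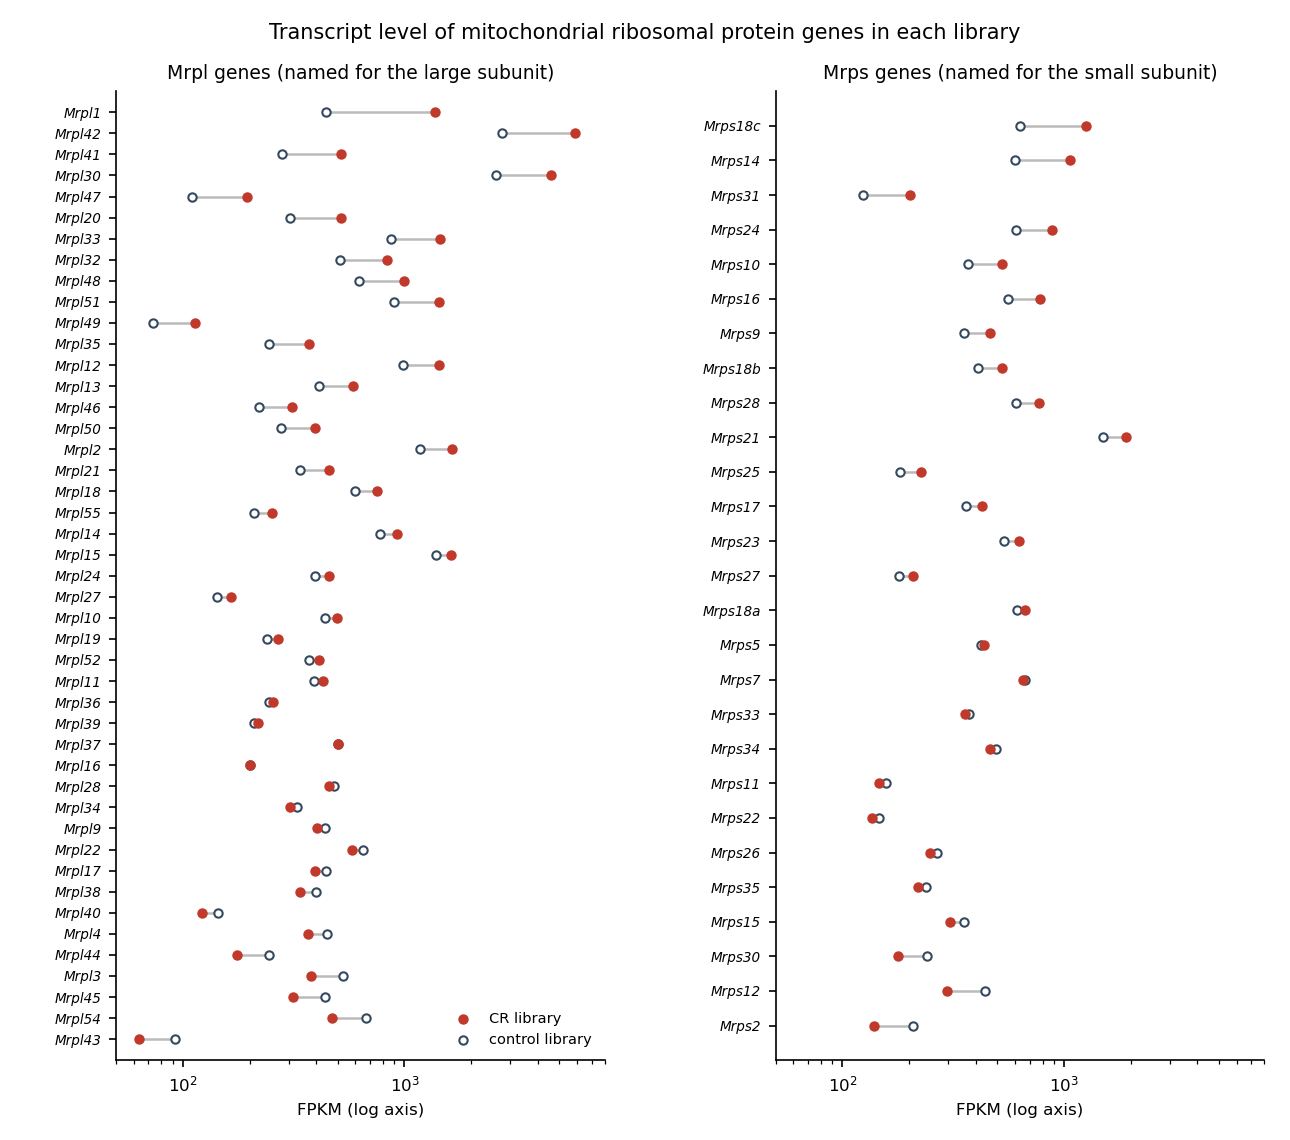
FPKM of each mitochondrial ribosomal protein gene on a log axis, with a filled point for the CR library and an open point for the control library, 1 library each; genes run from the highest log2 ratio at the top to the lowest. The lines are longest for Mrpl1, and at the bottom of both panels the open point lies to the right for genes such as Mrpl43 and Mrps2.

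Genes of the large and the small subunit had nearly the same median ratio. The median log2 ratio was 0.21 for the 45 Mrpl genes and 0.20 for the 27 Mrps genes, a difference of 0.0083. With the 28 members that overlap another locus left out, as described at the end, the Mrps median was -0.066 and the difference 0.27, so the closeness of the medians depends on those members. With all members, they differed in their upper tails: 12 of 45 Mrpl genes (26.7%) and 3 of 27 Mrps genes (11.1%) were at least 1.5-fold higher in CR, beside the 16.4% of all genes. Both genes past 2-fold were Mrpl genes. The middle 50% of Mrpl log2 ratios ran from -0.11 to 0.60 and that of Mrps from -0.10 to 0.37. Log2 ratios were above 0 for 31 Mrpl genes and for 16 Mrps genes. The values of typical genes were close: the median level was 431 FPKM in CR and 410.5 FPKM in control for Mrpl genes, and 435 FPKM in CR and 374 FPKM in control for Mrps genes.

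Sums of FPKM separated the subunits more than medians did. The Mrpl genes summed to 34360.3 FPKM in CR and 24522 FPKM in control, 1.40 times as much in CR. The Mrps genes summed to 14109 FPKM in CR and 11648 FPKM in control, 1.21 times as much in CR. For comparison, all single-symbol genes summed to 1.14 times as much in CR. Much of the Mrpl sum sits in a pair of genes, Mrpl30 and Mrpl42, which held 30.4% of it in CR and 21.8% in control. Without them the Mrpl sum was 1.25 times as high in CR as in control, beside 1.21 for the full Mrps sum. Both genes were themselves past 1.5-fold higher in CR, so leaving them out had to lower the Mrpl ratio. No Mrps gene was left out, and the step was added after the values were seen.

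Levels within this complex, whose proteins are present mostly in equal copy number, spread widely at the RNA level. The Mrpl genes ran from 63.6 FPKM (Mrpl43) to 5879.9 FPKM (Mrpl42) in CR, a 92.5-fold range, and from 73.5 FPKM (Mrpl49) to 2757.5 FPKM (Mrpl42) in control, a 37.5-fold range. The Mrps genes ran from 137 FPKM (Mrps22) to 1910.1 FPKM (Mrps21) in CR, and from 124 FPKM (Mrps31) to 1502 FPKM (Mrps21) in control. The order of the genes was much alike in the libraries, with a Spearman rho of 0.91 across the 72 genes and 0.90 across all genes; genes of one library share its depth and are not replicates, so this is a description.

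Mrpl1 had the highest ratio of all members. It encodes the protein of the mobile stalk that guides spent transfer RNA out of the ribosome. Its transcript, at chromosome 5, 96639134 to 96695728 (mm9, plus strand), stood at 1369.7 FPKM in CR and 442 FPKM in control, a fold of 3.10. No other locus of the table overlaps it, which sets it apart from Mrpl42, next in order. Mrpl42, a protein with no bacterial counterpart (chromosome 10, 94943440 to 94964565, minus strand), stood at 5879.9 FPKM in CR and 2757.5 FPKM in control, a fold of 2.13, and was the most abundant member in both libraries. An unnamed locus of the opposite strand inside it, from 94956263 to 94956353, was listed at 10611.9 FPKM in CR and 4548 FPKM in control. Since the described library preparation keeps no strand, reads cannot be assigned between these loci and the value of Mrpl42 is uncertain.

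The other 10 Mrpl genes past 1.5-fold fall into proteins with and without a bacterial counterpart. Mrpl30, the next most abundant member and a counterpart of a bacterial protein, stood at 4579.6 FPKM in CR and 2595 FPKM in control, a fold of 1.76. Mrpl33, another bacterial-type protein, stood at 1441 FPKM in CR and 869 FPKM in control. Mrpl20, which binds ribosomal RNA, stood at 519 FPKM in CR and 304 FPKM in control. Mrpl32, which an inner-membrane protease must trim before it can join the ribosome, stood at 831 FPKM in CR and 513 FPKM in control. Thus each of these bacterial-type genes lay between 1.62-fold and 1.76-fold. Mrpl35 stood lower in abundance, at 371 FPKM in CR and 244 FPKM in control. Of the proteins specific to mitochondria, Mrpl41 stood at 516 FPKM in CR and 281 FPKM in control, a fold of 1.84. Mrpl51 stood at 1428 FPKM in CR and 899 FPKM in control. Mrpl49, among the scarcest members, stood at 114 FPKM in CR and 73.5 FPKM in control. Mrpl47 and Mrpl48 also passed 1.5-fold and are given with their sites on the ribosome. Of the genes in this paragraph, Mrpl33, Mrpl41, Mrpl47, Mrpl48 and Mrpl49 overlap another locus, so their values are uncertain.

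The 5 Mrpl genes with the lowest ratios were Mrpl43, Mrpl54, Mrpl45, Mrpl3 and Mrpl44. Mrpl43, a mitochondria-specific protein, stood at 63.6 FPKM in CR and 92.6 FPKM in control, 1.45-fold lower in CR. Mrpl54, also specific to mitochondria, stood at 473 FPKM in CR and 674 FPKM in control. Mrpl3, a core protein near the site of peptide bond formation, stood at 379 FPKM in CR and 527 FPKM in control. None of these reached 1.5-fold. Mrpl44, which has the fold of a ribonuclease III enzyme, stood at 176 FPKM in CR and 244 FPKM in control, 1.38-fold lower in CR. Of the genes in this paragraph, Mrpl43, Mrpl45 and Mrpl3 overlap another locus, so their values are uncertain. An unnamed locus of the opposite strand over Mrpl43 was listed at 377 FPKM in CR and 313 FPKM in control.

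In the stalk that recruits translation factors all 3 listed genes had log2 ratios above 0, and none passed 1.5-fold. Mrpl12, the factor-binding protein of the stalk, which is also known to bind the mitochondrial RNA polymerase, stood at 1424 FPKM in CR and 988 FPKM in control, a fold of 1.44. Its anchor Mrpl10 stood at 499 FPKM in CR and 439 FPKM in control, and Mrpl11 of the stalk base at 431 FPKM in CR and 391 FPKM in control. The anchor and base therefore differed less between the libraries than Mrpl12, at folds of 1.14 and 1.10.

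Around the exit of the peptide tunnel the 5 measured genes were split, with a median log2 ratio of -0.17. Mrpl45, which ties the large subunit to the inner membrane, stood at 313 FPKM in CR and 439 FPKM in control, 1.40-fold lower in CR. Mrpl17 stood at 395 FPKM in CR and 444 FPKM in control, and Mrpl22 at 577 FPKM in CR and 648 FPKM in control. These 3 genes had log2 ratios below 0 and did not pass 1.5-fold. The other 2 had log2 ratios above 0, and Mrpl47 alone passed 1.5-fold. Mrpl24 stood at 456 FPKM in CR and 393 FPKM in control, and Mrpl47 at 195 FPKM in CR and 110.4 FPKM in control, a fold of 1.76. Mrpl24, Mrpl45 and Mrpl47 overlap another locus, so their values are uncertain.

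The central protuberance, a crest of the large subunit that faces the head of the small one, was split as well, with 4 of 6 genes above 0 and a median log2 ratio of 0.27. Mrpl48 stood at 999 FPKM in CR and 621 FPKM in control, a fold of 1.61. Mrpl46 stood at 311 FPKM in CR and 219.8 FPKM in control, Mrpl18 at 752 FPKM in CR and 596 FPKM in control, and Mrpl27 at 164 FPKM in CR and 142 FPKM in control. Mrpl38 and Mrpl40 were the members below 0. They stood at 338 FPKM in CR and 397 FPKM in control (Mrpl38), and at 122 FPKM in CR and 144 FPKM in control (Mrpl40). Mrpl40 and Mrpl48 overlap another locus, so their values are uncertain.

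The 5 most abundant Mrpl genes also include Mrpl2 and Mrpl15, both of bacterial type. Mrpl2, which binds the RNA of the peptidyl transferase centre, stood at 1631 FPKM in CR and 1173 FPKM in control, a fold of 1.39. Mrpl15 stood at 1613 FPKM in CR and 1389 FPKM in control, a fold of 1.16.

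Of the small-subunit genes, Mrps18c had the highest ratio. The Mrps18 family holds 3 relatives of a single bacterial protein, and all were above 0 by unequal amounts. Mrps18c (chromosome 5, 101227757 to 101243310, plus strand) stood at 1250.0 FPKM in CR and 632 FPKM in control, a fold of 1.98, just short of 2-fold. Mrps18b stood at 525 FPKM in CR and 411 FPKM in control, a fold of 1.28, and Mrps18a, which sits in the large subunit despite its name, at 667 FPKM in CR and 612 FPKM in control, a fold of 1.09. The named gene Fam175a overlaps Mrps18c on the opposite strand, at 68.5 FPKM in CR and 119 FPKM in control.

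Next to Mrps18c came a protein of the head and one specific to mitochondria. Mrps14, of the head, stood at 1068 FPKM in CR and 599 FPKM in control, a fold of 1.78. Mrps31, with no bacterial counterpart, stood at 202 FPKM in CR and 124 FPKM in control, a fold of 1.62; 5 unnamed loci of the opposite strand overlap it. These 3 were the Mrps genes past 1.5-fold. Mrps24, which lines the entry of the messenger RNA, stood at 882 FPKM in CR and 604 FPKM in control, and Mrps10 at 526 FPKM in CR and 369 FPKM in control. The abundant Mrps21 stood at 1910.1 FPKM in CR and 1502 FPKM in control, and Mrps28 at 774 FPKM in CR and 606 FPKM in control.

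At the other end were Mrps2 and Mrps12. Mrps2, a bacterial-type protein (chromosome 2, 28323586 to 28326697, plus strand), stood at 139 FPKM in CR and 208 FPKM in control, 1.497-fold lower in CR. Mrps12, the decoding-centre protein that governs the accuracy of translation (chromosome 7, 29524660 to 29526868, minus strand), stood at 297 FPKM in CR and 442 FPKM in control, 1.49-fold lower in CR. These were the lowest ratios of all 72 genes. Mrps30, which like Mrps18a sits in the large subunit, stood at 178 FPKM in CR and 239.7 FPKM in control. Mrps15 stood at 306 FPKM in CR and 353 FPKM in control, and Mrps35 at 219 FPKM in CR and 239 FPKM in control. Mrps5, named after its values were seen because lowering its counterpart in the worm Caenorhabditis elegans is known to lengthen life, stood at 435 FPKM in CR and 424 FPKM in control, a fold of 1.03.

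Split by ancestry, genes for proteins with a bacterial counterpart had a higher median ratio than those specific to mitochondria, among Mrpl and among Mrps genes. Among Mrps genes the median log2 ratio was 0.35 for 17 bacterial-type genes, of which 12 were above 0. It was -0.08 for 10 mitochondria-specific Mrps genes, of which 4 were above 0. The 17 include Mrps18a and the 10 include Mrps30, which both sit in the large subunit. The 4 above 0 (Mrps23, Mrps25, Mrps27 and Mrps31) all overlap another locus, so their values are uncertain. Among Mrpl genes the median log2 ratio was 0.22 for 29 bacterial-type genes, of which 21 were above 0. It was 0.11 for 16 mitochondria-specific Mrpl genes, of which 10 were above 0. At 1.5-fold the Mrpl genes showed no such order, with 7 of 29 (24.1%) bacterial-type and 5 of 16 (31.2%) mitochondria-specific genes higher in CR, beside 16.4% of all genes.

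Subunits that carry other names had ratios of a similar size. Of 7 such genes 6 were above 0, 2 were at least 1.5-fold higher in CR and 0 were lower, with a median log2 ratio of 0.22; among all genes 47.9% were above 0, 16.4% higher and 18.8% lower. Chchd1, of the small subunit, was as abundant as the leading Mrpl genes, at 4602 FPKM in CR and 2779.8 FPKM in control, a fold of 1.66. Gadd45gip1, of the large subunit, stood at 120.2 FPKM in CR and 78.5 FPKM in control, a fold of 1.53. Dap3, a GTP-binding protein of the small subunit, stood at 279.5 FPKM in CR and 187 FPKM in control, a fold of 1.49. Ict1, a release factor built into the large subunit, stood at 249 FPKM in CR and 230.2 FPKM in control.

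**Figure D2:**
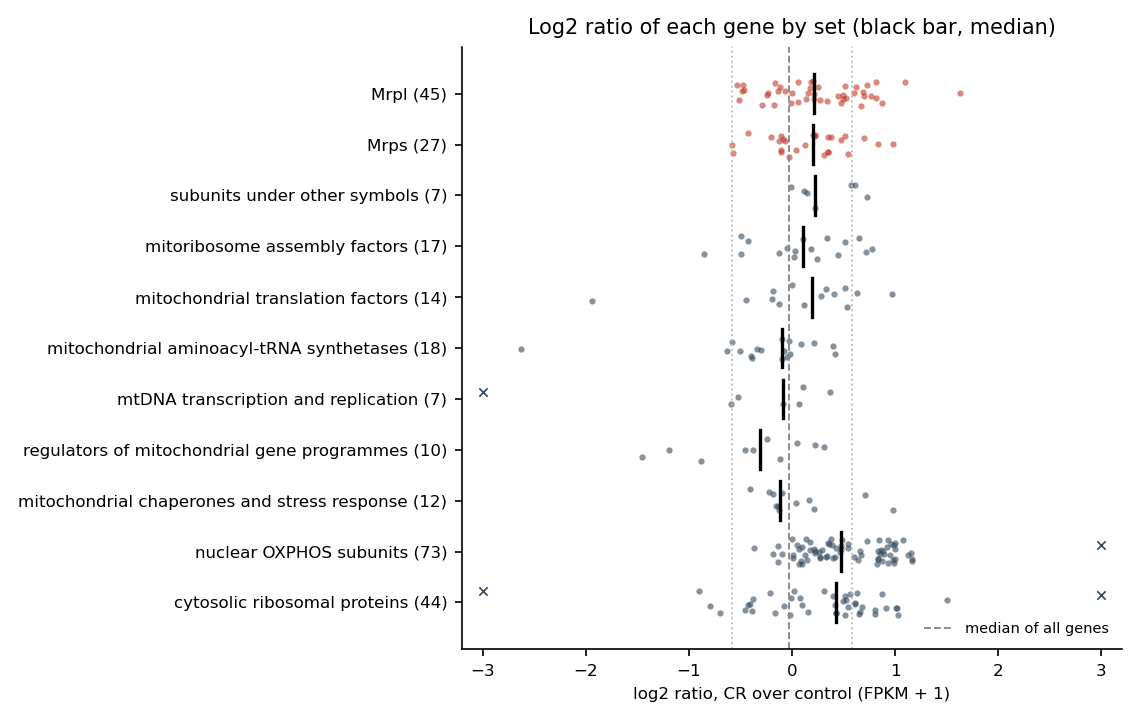
Log2 ratio of CR over control for each gene, by set, with the number of genes in parentheses; mitochondrial ribosomal genes are red, black bars are medians, dotted lines mark 1.5-fold and the dashed line is the median of all genes. Crosses at the edges stand for genes beyond 3 on the log2 scale. Medians lie at 0.21 for Mrpl and 0.20 for Mrps, between those of OXPHOS subunits (0.47) and synthetases (-0.10).

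The other parts of mitochondrial gene expression did not share one direction. Of 14 translation factors 2 were at least 1.5-fold higher in CR and 1 was lower, with a median log2 ratio of 0.20; these shares lie below the 16.4% higher and 18.8% lower among all genes. Gfm1, the elongation factor that moves the ribosome along, stood at 1246 FPKM in CR and 802 FPKM in control, and the release factor Mtrf1l at 82.6 FPKM in CR and 41.8 FPKM in control. Tufm, the elongation factor that delivers transfer RNA and the most abundant gene of the list by the mean of both libraries, stood at 977 FPKM in CR and 1329 FPKM in control. The gene below was Mtfmt, which adds the formyl group to the initiator transfer RNA, at 44.3 FPKM in CR and 173 FPKM in control, 3.84-fold lower in CR. Of 17 assembly factors 3 (17.6%) were at least 1.5-fold higher in CR, near the 16.4% of all genes, and 1 was lower, with a median of 0.11. The most abundant by the mean of both libraries was Rbfa, which helps mature the RNA of the small subunit, at 449 FPKM in CR and 439.8 FPKM in control. Fastkd2, an RNA-binding assembly protein, was the lower one, at 271 FPKM in CR and 489 FPKM in control.

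The mitochondrial aminoacyl-tRNA synthetases, which charge transfer RNA, had a median log2 ratio of -0.10, with 4 of 18 genes above 0, 0 at least 1.5-fold higher and 2 (11.1%) at least 1.5-fold lower in CR, under the 18.8% of all genes. Wars2, for tryptophan, stood at 33.7 FPKM in CR and 214 FPKM in control, 6.19-fold lower in CR, and Lars2, for leucine, was the most abundant, at 3707 FPKM in CR and 4551 FPKM in control. Of 7 genes that copy and transcribe mitochondrial DNA 3 were above 0 and 2 were at least 1.5-fold lower, with a median of -0.08 beside -0.03 for all genes. One was Polrmt, the RNA polymerase that Mrpl12 binds, at 249.9 FPKM in CR and 377 FPKM in control, and the other was Polg2, listed at 0 in CR and at 21 FPKM in control. The most abundant was the transcription factor Tfb2m, at 433 FPKM in CR and 413 FPKM in control.

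Regulators of mitochondrial gene programmes had a median log2 ratio of -0.31, below that of the ribosomal genes. Of 10 genes 3 were at least 1.5-fold lower in CR and 0 were higher, beside 18.8% lower and 16.4% higher among all genes. Ppargc1a, the coactivator that drives mitochondrial biogenesis in muscle and the most abundant of the list by the mean of both libraries, stood at 488 FPKM in CR and 902 FPKM in control, 1.85-fold lower in CR. Its relative Pprc1 stood at 68.3 FPKM in CR and 189 FPKM in control, 2.75-fold lower, and Myc at 48.2 FPKM in CR and 111 FPKM in control, 2.28-fold lower. The DNA-binding factors whose sites are known from mitochondrial ribosomal promoters lay within 1.5-fold. Nrf1 stood at 182 FPKM in CR and 175 FPKM in control, Gabpa, an ETS factor, at 637 FPKM in CR and 514 FPKM in control, and Yy1 at 235 FPKM in CR and 307 FPKM in control. Mitochondrial chaperone and stress genes had a median of -0.11, with 2 of 12 (16.7%) at least 1.5-fold higher, near the 16.4% of all genes. The higher genes were Atf5 (533 FPKM in CR and 271 FPKM in control) and Ddit3 (68.3 FPKM in CR and 41.5 FPKM in control). The chaperone Hspd1, the most abundant, stood at 3145 FPKM in CR and 3374 FPKM in control.

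Mitochondrial ribosomal genes stood between all genes and the 2 sets most like them. Over all genes 47.9% were above 0, 16.4% were at least 1.5-fold higher and 18.8% at least 1.5-fold lower in CR. Each count of the paragraph is to be read beside these shares. The 73 nuclear genes for oxidative phosphorylation (OXPHOS) subunits, which join with the products of the mitochondrial ribosome, had a median log2 ratio of 0.47, with 68 above 0, 32 (43.8%) at least 1.5-fold higher and 0 lower. The 44 cytosolic ribosomal protein genes had a median of 0.43, with 30 above 0, 15 (34.1%) at least 1.5-fold higher and 4 lower; many processed copies exist for these genes, so their values are uncertain. A pair of loci covers nearly the whole mitochondrial genome, and they stood at 104224 FPKM in CR and 57901 FPKM in control (plus strand) and 71608.5 FPKM in CR and 41858 FPKM in control (minus strand), ratios of 1.80 and 1.71; both cover the same bases and strand was not kept, so the split between them is uncertain. Markers of slow fibres and fat cells differed far more. All 8 slow-fibre markers were at least 1.5-fold higher in CR, their sum being 132105 FPKM in CR and 15418 FPKM in control, and 9 of 10 white adipocyte markers were, their sum being 25888 FPKM in CR and 7420.3 FPKM in control. All 6 listed brown adipocyte markers were as well, with 3 of them, Ucp1, Otop1 and Prdm16, listed at 0 in control. Cox8b of that list also counts among the OXPHOS subunits, so it does not mark fat alone. Its transcript stood at 3402 FPKM in CR and 1697 FPKM in control. By contrast, 4 of 6 measured tendon markers were at least 1.5-fold lower. Endothelial markers had a median log2 ratio of 0.20, with 2 of 6 at least 1.5-fold higher. Macrophage markers had a median of 0.41, with 1 of 5 (20%) at least 1.5-fold higher, near the 16.4% of all genes. The 2 neutrophil markers measured were both at least 1.5-fold higher. The part of muscle-fibre content, fibre type, fat and tendon content in the ratios of the ribosomal genes was not tested.

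Over all 72 members the median ratio was higher where the transcript held less GC, an order present in the Mrpl genes and not in the Mrps genes. In the 24 members with the lowest GC content (39.6% to 48.4%) the median log2 ratio was 0.49, with 11 of 24 genes at least 1.5-fold higher in CR. In the middle 24 it was 0.21, with 4 of 24. In the 24 with the highest GC content (52.6% to 60.6%) it was 0.06, with 0 of 24. The same order was present across the table with smaller steps: genes above 0 in both libraries had medians of 0.06, -0.02 and -0.11 in the same GC ranges, and 17.5%, 15.0% and 12.7% of them were at least 1.5-fold higher in CR. From low to high GC the medians were 0.63, 0.18 and 0.08 for Mrpl genes, and 0.18, 0.22 and 0.05 for Mrps genes. Across members, Spearman's rho of log2 ratio with GC content was -0.33 (n = 72; -0.40 over 45 Mrpl and -0.19 over 27 Mrps genes), against -0.13 for 8938 genes, and rho with mean FPKM was 0.43 for members against 0.05 for those genes. The points of each correlation come from the same pair of libraries. Median GC content was 50.9% for Mrpl genes, 49.7% for Mrps genes and 50.7% for all genes. The part of GC content in the ratios was not tested.

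**Figure D3:**
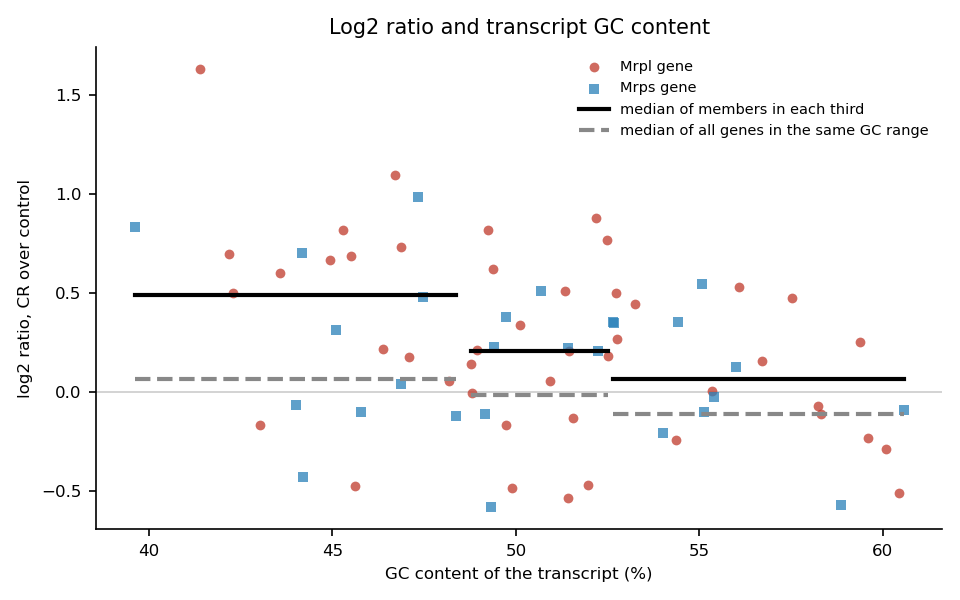
Log2 ratio of CR over control against the GC content of the transcript for each Mrpl gene (circles) and Mrps gene (squares); solid lines are medians of 24 members each, split by GC content, and dashed lines medians of all genes above 0 in both libraries in the same range. The solid lines step down from 0.49 to 0.21 and 0.06, each above its dashed line.

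By position, 13 of the 72 members start close to a neighbour on the other strand. By the coordinates of the table, 12 pairs of a member and another named gene start back to back within 300 bp, a limit set after the values were seen. In 1 of them, Mrps18c and Helq, the partner was listed at 0 in CR and at 98.8 FPKM in control. In 9 of the other 11 pairs, the genes lay on the same side of 0 on the log2 scale. Of 293 such pairs without a member 159 (54.3%) did. Among the 9 pairs, Tcp1 (0.02), Fau (0.05) and Mrps7 (-0.03) lay close to 0, where the side means little. Mrps12 and Sars2, the mitochondrial serine synthetase, start 142 bp apart, and Sars2 stood at 243 FPKM in CR and 364 FPKM in control, 1.49-fold lower in CR, the same fold as Mrps12. Mrpl47 and Ndufb5, a complex I subunit, start 129 bp apart, and Ndufb5 stood at 4509.8 FPKM in CR and 2428 FPKM in control, a fold of 1.86 beside 1.76 for Mrpl47. In each of these pairs the partners had nearly equal ratios. The ratio of Mrpl47 is uncertain, since Actl6a overlaps it on the opposite strand, at 235 FPKM in CR and 153 FPKM in control.

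Other pairs parted. Mrpl46 and Mrps11 start 42 bp apart, a large-subunit and a small-subunit gene on opposite strands of chromosome 7. Mrpl46 stood at 311 FPKM in CR and 219.8 FPKM in control, a log2 ratio of 0.50, and Mrps11 at 146 FPKM in CR and 157 FPKM in control, a log2 ratio of -0.10. Mrpl50 had a log2 ratio of 0.50, while its neighbour Zfp189, a zinc finger gene, stood at 27.8 FPKM in CR and 44.7 FPKM in control, a log2 ratio of -0.67. These were the 2 pairs of opposite sign. Mrpl32 stood 1.62-fold higher in CR, while Psma2, a proteasome subunit that starts 177 bp away, stood at 2613 FPKM in CR and 2386 FPKM in control.

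**Figure D4:**
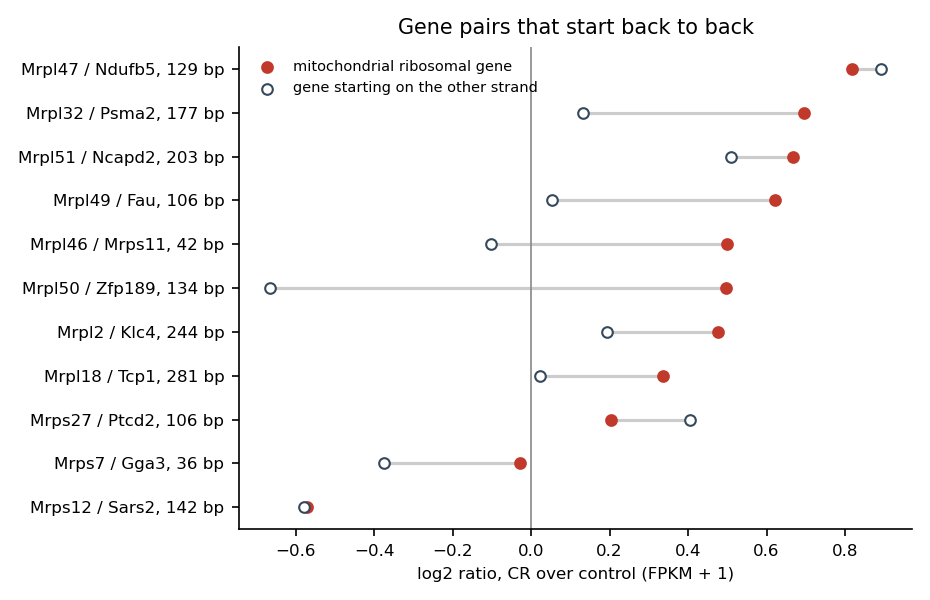
Log2 ratio of CR over control for 11 pairs of genes that start back to back within 300 bp and are above 0 in both libraries, with the distance between starts; filled points are mitochondrial ribosomal genes and open points their neighbours. For Mrpl46 the neighbour is Mrps11. The points nearly coincide for Mrps12 and Sars2 and lie on opposite sides of 0 for Mrpl46 and Mrpl50.

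Promoters of 63 of the 72 members were matched by symbol in RefSeq (GRCm38.p6), each 300 bases long, from 250 before the start to 50 after it. The letters searched on both strands were GCATGCGC, the core of the site of Nrf1, which can overlap itself on the other strand, CCGGAAG, a site of ETS factors such as Gabpa, and AAGATGGC, a site of Yy1. The ETS letters stood in 23 members (36.5%), against 20.0% of the 7522 measured genes with a promoter in that table. The Yy1 letters stood in 12 members (19.0%), against 5.54%, and the Nrf1 core in 8 members (12.7%), against 6.26%. Any of the 3 stood in 35 members (55.6%), of which 21 are Mrpl and 14 Mrps genes, against 28.6%. The ratios did not follow these letters upwards: the median log2 ratio was 0.18 for the 35 members with any of them and 0.29 for the 28 without. A match is a description of letters, not a site shown to be used.

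Shown 5′ to 3′ on the strand of the gene, with matches to these letters in capitals, are the promoters of the genes with the highest ratios, Mrpl1 (chr5:96209865-96210164, plus strand) and Mrpl42 (chr10:95501900-95502199, minus strand), and of Mrpl32 (chr13:14612988-14613287, minus strand), which holds the most Nrf1 matches of the sequences shown. They are followed by the promoter of Mrps12, next to Sars2 (chr7:28741772-28742071, minus strand), a pair with nearly equal ratios, and that of Mrps11, next to Mrpl46 (chr7:78782881-78783180, plus strand), a pair that parted. The Mrpl1 promoter holds none of the letters, the Mrpl42 promoter holds the Yy1 letters just after the start, and the Mrps12 and Mrps11 sequences hold them in reverse, farther upstream than the start of the neighbouring gene, with the ETS letters also at the start of Mrps12. The promoter window of Mrpl46 itself holds none of the letters.
Mrpl1: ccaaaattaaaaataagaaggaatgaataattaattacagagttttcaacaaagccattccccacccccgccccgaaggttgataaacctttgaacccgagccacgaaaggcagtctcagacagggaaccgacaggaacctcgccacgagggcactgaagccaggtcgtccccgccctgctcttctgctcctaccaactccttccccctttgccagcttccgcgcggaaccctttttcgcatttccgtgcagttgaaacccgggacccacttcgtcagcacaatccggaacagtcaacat
Mrpl42: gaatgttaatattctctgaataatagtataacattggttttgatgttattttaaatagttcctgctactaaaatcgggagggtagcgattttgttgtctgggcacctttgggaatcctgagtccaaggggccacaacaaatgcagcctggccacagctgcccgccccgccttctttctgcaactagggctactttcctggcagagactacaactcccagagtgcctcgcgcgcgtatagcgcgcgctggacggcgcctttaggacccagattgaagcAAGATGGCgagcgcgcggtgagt
Mrpl32: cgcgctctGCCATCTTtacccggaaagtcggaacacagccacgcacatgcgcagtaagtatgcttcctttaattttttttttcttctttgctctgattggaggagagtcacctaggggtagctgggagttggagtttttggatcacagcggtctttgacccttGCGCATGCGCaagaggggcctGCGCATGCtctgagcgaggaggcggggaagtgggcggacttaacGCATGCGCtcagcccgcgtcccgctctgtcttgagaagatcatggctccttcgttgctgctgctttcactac
Mrps12: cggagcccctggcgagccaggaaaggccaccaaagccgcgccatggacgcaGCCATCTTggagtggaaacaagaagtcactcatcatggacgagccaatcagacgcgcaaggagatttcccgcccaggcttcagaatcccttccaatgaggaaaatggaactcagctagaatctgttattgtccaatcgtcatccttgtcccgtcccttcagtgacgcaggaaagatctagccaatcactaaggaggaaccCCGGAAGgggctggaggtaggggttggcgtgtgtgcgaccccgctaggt
Mrps11: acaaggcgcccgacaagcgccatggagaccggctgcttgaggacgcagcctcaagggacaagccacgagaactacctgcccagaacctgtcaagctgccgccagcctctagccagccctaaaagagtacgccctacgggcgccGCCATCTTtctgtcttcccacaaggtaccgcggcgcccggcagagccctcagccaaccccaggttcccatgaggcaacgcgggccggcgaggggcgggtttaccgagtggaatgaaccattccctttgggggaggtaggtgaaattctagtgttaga
All coordinates of promoters are those of GRCm38.p6, whereas gene positions given with levels are those of the deposited table on mm9.

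Overlap with other loci touched 28 of the 72 members, 18 Mrpl and 10 Mrps genes, 17 of the 28 by a named gene on the opposite strand. Since strand was not kept, these values are uncertain. With these members left out, the median log2 ratio of 27 Mrpl genes was 0.21 and that of 17 Mrps genes was -0.07, so the Mrps median was above 0 with the overlapped genes and below 0 without them. Mrps18c and Mrps31 are among those left out.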

How the data were processed

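Poly(A) RNA of thigh muscle was sequenced as 1 library per diet, with 76 bp paired-end reads, per the labels' protocols. TopHat 1.2.0, Cufflinks, Cuffdiff and mouse build mm9 are named, per the submitters' processing notes, and the sources used here give no options or filters. The authors deposited 1 FPKM value per locus and library, per the file headers. The lowest is exactly 1, so 1 was read as an added offset and subtracted; this is inferred from the values. Loci at 0 numbered 3691 in CR and 1615 in control, and a 0 can be a failed estimate. Depth is unknown, so no counting interval is given.

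Of 23672 loci, 234 with more than 1 symbol were set aside, and loci sharing a symbol were summed. Log2 ratios used a pseudocount of 1 FPKM with no further scaling, for the 10533 of 10543 genes that average 1 FPKM or more. Samples were grouped by the diet in the labels. With 1 library per group there was no test. Genes named are the members past 1.5-fold, the 5 highest, 5 lowest and 5 most abundant of Mrpl and Mrps, and listed structural groups; of other lists, genes past 2-fold and the most abundant. Exceptions to this rule, chosen after their values were seen, include Mrps5, Dap3, Gfm1, Fastkd2, Atf5, Nrf1, Yy1 and the back-to-back neighbours. Members and lists were chosen with earlier results of these data known. OXPHOS and cytosolic ribosomal genes were taken by symbol pattern. Transcript GC content came from GENCODE M21 by symbol, for 100% of members and 90.6% of genes. Alternatives were other pseudocounts, filters, scalings, locus and subunit assignments. The ratio functions were tested on simulated data. Python 3.11.15, numpy 2.4.6, pandas 2.3.3, scipy 1.17.1 and matplotlib 3.10.9 were used.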

Additional observations from a re-analysis of the deposited data

How the results depend on the processing

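With 1 library per group no alternative can replace replication, and depth, which is unknown, limits every value. No paired analysis was possible because each group has 1 library. Of 100 recomputed values 82 stayed within the tolerance set (0.005 on the log2 scale for medians, 1.5 times for counts). Some alternatives could not move a value, since every member has 1 locus, is above 0 in both libraries and passes the filter. These were the largest locus of a symbol, leaving out members listed at 0, and no filter on low values. The count of 82 includes them and so overstates how much was checked. Centring on the median gene gave medians of 0.24 (Mrpl) and 0.23 (Mrps). Setting the library sums equal, the 50 most abundant genes left aside, gave 0.14 (Mrpl) and 0.13 (Mrps), with 1 Mrpl and 2 Mrps genes at least 1.5-fold lower in CR; a pseudocount of 0.1 FPKM gave 1 such Mrps gene. Counting Mrps18a and Mrps30 with the large subunit gave a Mrps median of 0.22 and turned the difference of medians to -0.013, and adding the merged loci gave 0.21 and a difference of -0.0025; all 3 differences are close to 0. Leaving out the overlapped members, an alternative added after the data were seen, turned the Mrps median to -0.066 and the difference to 0.27; among the fewer genes left, 6 Mrpl and 1 Mrps genes were at least 1.5-fold higher and 18 Mrpl and 7 Mrps genes above 0. Without Mrpl30 and Mrpl42, also added then, the ratio of Mrpl sums was 1.25. Fewer genes were left in both of these alternatives, and the cause of the changes was not tested.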
